A study of Mus musculus with 36 samples.

Results

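A/J and C57Bl/6J blood were compared on 6 of the 36 Affymetrix arrays of a study of globin removal in mouse blood, namely the 3 GLOBINclear arrays of A/J mice and the 3 GLOBINclear arrays of C57Bl/6J mice. The groups are defined by their labels for strain and RNA preparation. Each array held the peripheral blood RNA of 1 male mouse aged 8 weeks, taken by cardiac puncture under isoflurane into EDTA and then Trizol LS. The A/J mice and the C57Bl/6J mice were inbred animals from 1 supplier, housed singly for a week, with no treatment or engineered allele named in the labels. GLOBINclear is a kit that pulls alpha and beta globin mRNA out of total RNA. The whole arrays of the same 6 mice, which held RNA that had not gone through the kit, served as a check of direction. They share their mice with the GLOBINclear arrays and add no independent animals.

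A/J and C57Bl/6J are the parental strains of the AXB and BXA recombinant inbred panels and of consomic panels in which single A/J chromosomes replace those of C57Bl/6J. The strains carry different haplotypes at the major histocompatibility complex, H2a in A/J and H2b in C57Bl/6J, and at the beta globin locus, diffuse in A/J and single in C57Bl/6J. Most RNA in circulating blood comes from reticulocytes, the youngest red cells, with platelets and white cells adding the rest. In such bulk samples, fewer cells of a type and less RNA per cell cannot be told apart.

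The values are log2 signals, and a difference of 1 is a 2-fold change. Every difference is A/J minus C57Bl/6J. Of 45101 probe sets, 22518 passed the filter on low signal and were tested, and they named 11353 genes, each read on its brightest probe set. The A/J GLOBINclear arrays correlated with each other at 0.984 to 0.986 over the tested probe sets. The C57Bl/6J GLOBINclear arrays correlated at 0.918 to 0.981, and C57Bl/6J mouse 1 stood apart from the other C57Bl/6J mice. Its array had 5278 probe sets over log2 5, against 4430 and 4205 on the other C57Bl/6J arrays and 3871 to 4245 on the A/J arrays. It also had the lowest poly-A spike-in signal of the 6, 8.35, against 9.16 to 9.89 on the others. Values without this mouse are given where they change a statement. In both preparations the 95th percentile of signal was lower on every A/J array than on every C57Bl/6J array. In GLOBINclear RNA it was 6.38 to 6.58 in A/J and 6.64 to 6.84 in C57Bl/6J. In whole RNA it was 4.981 to 5.296 in A/J and 5.302 to 5.696 in C57Bl/6J.

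In GLOBINclear RNA, 700 of the 11353 genes differed between the strains at a limma adjusted p under 0.05, which is 6.17%. A/J blood was higher for 255 of them and lower for 445, 2.25% and 3.92% of all genes tested. Among these, 189 were at least 2-fold higher and 342 at least 2-fold lower, which is 1.66% and 3.01%. The median difference over all genes was close to 0, at -0.003. By mean signal it was 0.02 up to 3.5, -0.18 at 3.5 to 5 and -0.39 at 5 to 7. Among brighter genes it was -0.15 at 7 to 9 and -0.02 above 9. Calls were rare among faint genes, 0.831% of those with a mean signal up to 3.5, and common above a signal of 9, at 20.7%. Over probe sets the count was 1236, or 5.49%, with 490 higher (2.18%) and 746 lower (3.31%). Another scaling moves that split, since quantile normalization called 1216 probe sets with 695 higher and 521 lower. Leaving out 1 mouse gave 658 to 1770 calls. The count was 762 without A/J mouse 2, 658 without A/J mouse 3, 741 without C57Bl/6J mouse 2, 1770 without C57Bl/6J mouse 3, 934 without A/J mouse 1 and 1206 without C57Bl/6J mouse 1.

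The check in whole RNA ran the same way for most genes. Of the 700 called genes, 668 had the same sign in whole RNA, compared with 64.41% of all tested genes, and 209 were called there as well. Whole RNA alone gave 285 called genes, or 2.51%, with 94 higher in A/J (0.828%) and 191 lower (1.68%). Over probe sets it gave 514, or 2.28%. One gene, D2hgdh, was called with opposite signs.

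**Figure D1:**
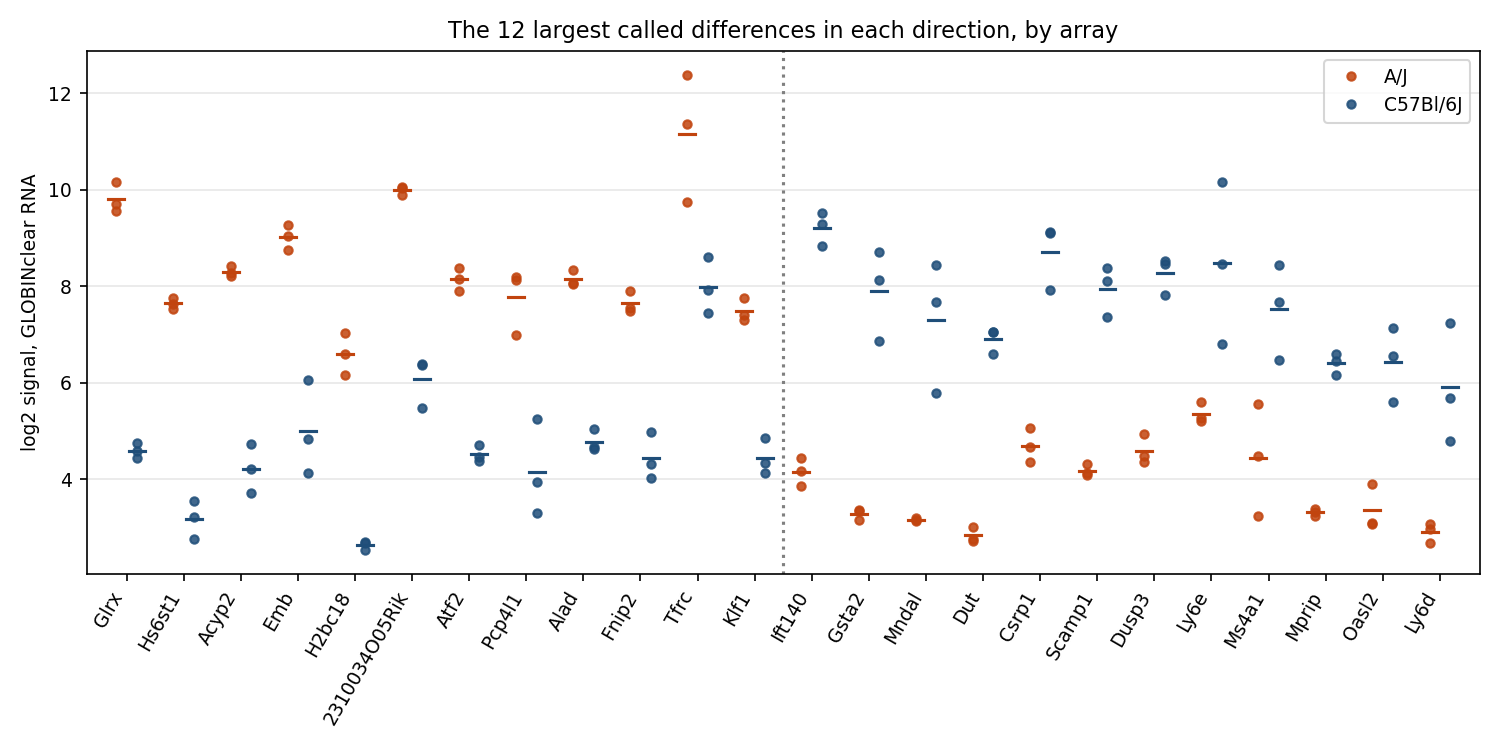
Log2 signal in GLOBINclear RNA (vertical axis) of the 12 genes with the largest called difference in each direction, with A/J mice left and C57Bl/6J mice right for each gene. Points are single mice and bars are means of 3. Glrx to Klf1 were higher in A/J and Ift140 to Ly6d were lower.

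The largest difference was that of Glrx, glutaredoxin, which uses glutathione to reduce protein disulfides. Glrx had 10.16, 9.56 and 9.70 in A/J mice, against 4.75, 4.44 and 4.59 in C57Bl/6J mice. Its mean was 9.81 ± 0.32 in A/J and 4.59 ± 0.16 in C57Bl/6J (SD, n = 3 each), a 37.1-fold difference (log2 5.21, SE 0.53, adjusted p = 3.06e-05). The strains lay far apart, and the second Glrx probe set gave 5.42. The other 4 strains had means of 8.71 to 10.00, so C57Bl/6J was the one that stood apart at this gene.

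Hs6st1, a heparan sulfate 6-O-sulfotransferase, had 7.53, 7.64 and 7.75 in A/J mice, against 3.54, 2.77 and 3.23 in C57Bl/6J mice (log2 4.46, SE 0.44, adjusted p = 2.11e-05). Acyp2, an acylphosphatase, had 8.27, 8.21 and 8.42 in A/J mice, against 4.22, 3.71 and 4.72 in C57Bl/6J mice (log2 4.08, SE 0.40, adjusted p = 2.21e-05). For both genes every A/J mouse was more than 3 log2 units above every C57Bl/6J mouse. Emb, embigin, a membrane partner of monocarboxylate transporters, had 8.74, 9.26 and 9.04 in A/J mice, against 6.05, 4.83 and 4.12 in C57Bl/6J mice (log2 4.01, SE 0.54, adjusted p = 0.000364). Here A/J was the strain that stood apart, because the other 4 strains had Emb means of 4.62 to 6.41. H2bc18, an H2B histone gene, had 7.03, 6.16 and 6.60 in A/J mice, against 2.53, 2.69 and 2.70 in C57Bl/6J mice (log2 3.95, SE 0.22, adjusted p = 3.99e-08). It too was highest in A/J, with means of 2.69 to 4.58 in the other strains.

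The group held 4 more genes outside the red cell lists. 2310034O05Rik, an uncharacterised gene, differed by 3.90 (SE 0.31, adjusted p = 1.86e-06). Pcp4l1 had 7.0, 8.12 and 8.19 in A/J mice, against 3.29, 3.94 and 5.24 in C57Bl/6J mice, a difference of 3.61 (SE 0.54, adjusted p = 0.000852). C57Bl/6J was again the outlying strain for Pcp4l1, with 7.76 to 8.89 elsewhere. Fnip2, a folliculin partner in nutrient sensing, differed by 3.20 (SE 0.41, adjusted p = 0.00027). Atf2, a transcription factor of the CREB family, differed by 3.63 (SE 0.51, adjusted p = 0.000528) on its brightest probe set, but its other 4 tested probe sets gave 0.07 to 0.97 and none was called. The other members of the higher group were Alad, Tfrc and Klf1, which belong to the red cell genes.

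Among genes lower in A/J, Ift140, a part of the intraflagellar transport machinery of cilia, had 4.43, 3.86 and 4.16 in A/J mice, against 8.82, 9.29 and 9.52 in C57Bl/6J mice. The difference was -5.06 (SE 0.74, adjusted p = 0.000719), a 33.4-fold lower mean in A/J. The other 4 strains had means of 3.94 to 5.79, so the high signal belonged to C57Bl/6J. Gsta2, an alpha class glutathione transferase, had 3.34, 3.15 and 3.36 in A/J mice, against 6.87, 8.14 and 8.71 in C57Bl/6J mice (log2 -4.62, SE 0.35, adjusted p = 1.22e-06). Its A/J values were all close to the faintest signals on the arrays, and the other strains reached at most 5.54.

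Csrp1, a LIM domain protein of the actin cytoskeleton, had 5.05, 4.67 and 4.35 in A/J mice, against 7.92, 9.11 and 9.09 in C57Bl/6J mice (log2 -4.02, SE 0.32, adjusted p = 2e-06). Scamp1, a secretory carrier membrane protein, had 4.12, 4.31 and 4.08 in A/J mice, against 7.36, 8.11 and 8.38 in C57Bl/6J mice (log2 -3.78, SE 0.33, adjusted p = 6.24e-06). Dusp3, a dual-specificity phosphatase, had 4.94, 4.35 and 4.48 in A/J mice, against 7.80, 8.47 and 8.51 in C57Bl/6J mice (log2 -3.67, SE 0.27, adjusted p = 9.97e-07). For these 3 genes C57Bl/6J had the highest and A/J the lowest mean of all 6 strains, the others lying between 5.47 and 7.48. Dut, the dUTPase that keeps uracil out of DNA, had 2.77, 3.01 and 2.72 in A/J mice, against 6.60, 7.05 and 7.04 in C57Bl/6J mice (log2 -4.06, SE 0.22, adjusted p = 2.51e-08). Mprip, which binds myosin phosphatase, differed by -3.09 (SE 0.23, adjusted p = 8.24e-07). Both were near the floor in every A/J mouse.

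Ly6e, a GPI-anchored surface protein induced by interferon, had 5.59, 5.21 and 5.27 in A/J mice, against 10.17, 8.46 and 6.80 in C57Bl/6J mice (log2 -3.12, SE 0.62, adjusted p = 0.00669). Ly6d, a surface marker of early B cells, had 3.07, 2.97 and 2.69 in A/J mice, against 7.23, 5.67 and 4.79 in C57Bl/6J mice (log2 -2.99, SE 0.54, adjusted p = 0.00347). In both genes the C57Bl/6J mice spread widely, mouse 1 being highest, while the A/J mice lay close together. Without C57Bl/6J mouse 1 both stayed lower and called. Mndal, Ms4a1 and Oasl2 complete the group and are described with their families.

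Platelets are fragments of megakaryocytes that carry their own mRNA and seal damaged vessels through adhesion receptors, integrins and stored proteins. Genes of this lineage were lower in A/J, and of the 28 gene lists theirs had the highest share called, 55%. Of 20 tested markers, 11 were called lower and none higher, against 3.92% of all genes called lower, and the median difference was -0.94, against -0.003 over all genes. On 17 of the 20 the strains' arrays did not overlap, compared with 19.7% of all genes. The mean signal of the list was 8.99 to 9.43 in A/J mice and 9.68 to 10.36 in C57Bl/6J mice. Of all genes with a mean signal above 9, 20.7% were called in either direction. In whole RNA the same 11 genes were called lower and the median was -1.27.

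**Figure D2:**
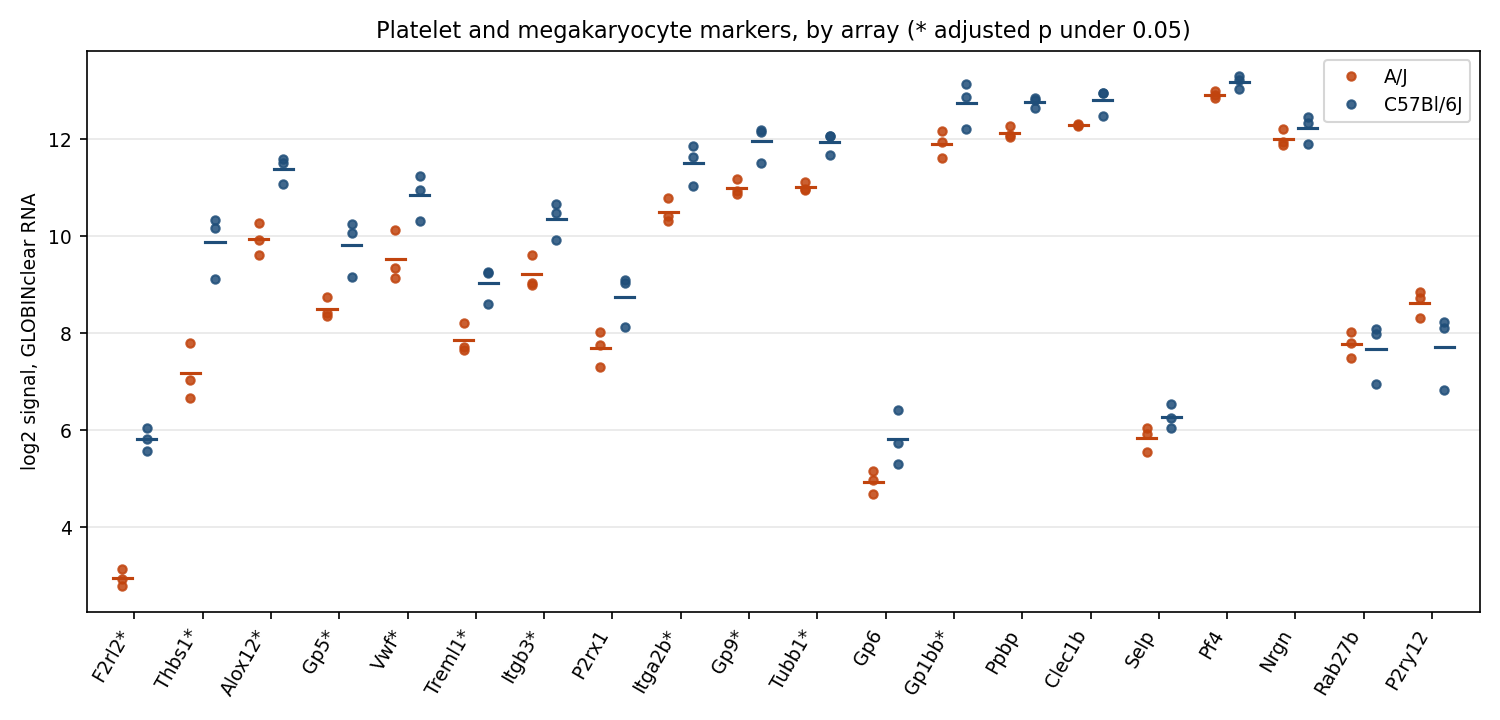
Log2 signal in GLOBINclear RNA (vertical axis) of the 20 tested platelet and megakaryocyte markers, with A/J mice left and C57Bl/6J mice right for each gene, points for single mice, bars for means of 3 and an asterisk where the adjusted p was under 0.05. The 11 called genes were all lower in A/J, by 0.83 to 2.87, and P2ry12 lay the other way without a call.

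Among receptors, F2rl2, which encodes the thrombin cofactor receptor PAR3, had 3.15, 2.93 and 2.78 in A/J mice, against 5.58, 6.05 and 5.83 in C57Bl/6J mice. The difference was -2.87 (SE 0.20, adjusted p = 4.75e-07), and A/J mice were near the floor of the scale. Itgb3, integrin beta 3 of the fibrinogen receptor, had 9.61, 9.0 and 9.03 in A/J mice, against 9.92, 10.66 and 10.48 in C57Bl/6J mice (log2 -1.14, SE 0.21, adjusted p = 0.00391). Its partner Itga2b had 10.79, 10.33 and 10.41 in A/J mice, against 11.04, 11.87 and 11.63 in C57Bl/6J mice (log2 -1.0, SE 0.22, adjusted p = 0.0121). C57Bl/6J mouse 1 lay nearest to the A/J mice for both chains, without overlap. Itga2b and the next group of genes are named here after their values were seen.

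The von Willebrand receptor chains Gp5, Gp9 and Gp1bb differed by -1.32, -0.96 and -0.83 (adjusted p = 0.00924, 0.021 and 0.0482). Vwf, their ligand, differed by -1.31 (SE 0.26, adjusted p = 0.00674). Treml1, a receptor of platelet granules, differed by -1.18 and Tubb1, the platelet beta tubulin, by -0.92 (adjusted p = 0.0201 and 0.00393). All 6 of these genes had non-overlapping arrays.

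Of secreted and enzymatic products, Thbs1, thrombospondin 1 of the alpha granules, had 7.80, 6.67 and 7.04 in A/J mice, against 9.12, 10.17 and 10.33 in C57Bl/6J mice. Its difference was -2.70 (SE 0.33, adjusted p = 0.000169), a 6.50-fold lower mean in A/J. Alox12, the platelet 12-lipoxygenase, had 10.28, 9.63 and 9.93 in A/J mice, against 11.08, 11.60 and 11.51 in C57Bl/6J mice (log2 -1.45, SE 0.24, adjusted p = 0.00178). Every A/J mouse was below every C57Bl/6J mouse for both. The granule chemokines Pf4 and Ppbp, among the brightest genes of the list, were not called, with differences of -0.27 and -0.64 (adjusted p = 0.0972 and 0.248). P2ry12, the ADP receptor, had a positive difference of 0.91 that was not called (adjusted p = 0.529).

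The platelet count depended on single mice and on the fit, but its direction did not. It was 13 of 20 without C57Bl/6J mouse 1, 6 without C57Bl/6J mouse 2, 7 without A/J mouse 2, 7 without A/J mouse 3, 8 without C57Bl/6J mouse 3 and 11 without A/J mouse 1, and the list median lay between -1.24 and -0.85 over all alternatives. Gp1bb, Gp9, Treml1, Itga2b and Gp5 lost their call without C57Bl/6J mouse 2 (adjusted p 0.0579 to 0.198), and the first 4 of them also without A/J mouse 2 or A/J mouse 3 (0.0598 to 0.202). Without C57Bl/6J mouse 3, Gp1bb, Gp9 and Treml1 were not called (0.0532 to 0.09). With the 6 arrays of these strains fitted alone, Itgb3, Itga2b, Gp1bb, Gp5, Gp9, Vwf and Treml1 were not called. With the replicate number as a block on those arrays, F2rl2 alone of the called platelet genes kept its call.

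Red cell precursors build hemoglobin by taking up iron through the transferrin receptor, making heme and assembling a membrane skeleton, under transcription factors such as KLF1 and GATA1. Over 3 red cell lists with 65 tested genes in all, 14 were called higher in A/J and 3 lower, and 48 were not called. The share called was 26.2%, against 6.17% of all genes. Among genes as bright as these lists, 14.6% were called at a signal of 5 to 7 and 21.4% at 7 to 9. The median over all 65 genes was 0.12. In whole RNA 5 of the 65 genes were called higher and 2 lower, against 0.828% and 1.68% of all genes. The mean signals of the erythrocyte membrane list were 7.71 to 7.74 in A/J mice and 6.74 to 7.41 in C57Bl/6J mice. Those of the other erythroid genes were 8.94 to 8.95 in A/J mice and 8.28 to 8.68 in C57Bl/6J mice, with C57Bl/6J mouse 1 lowest in both.

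**Figure D3:**
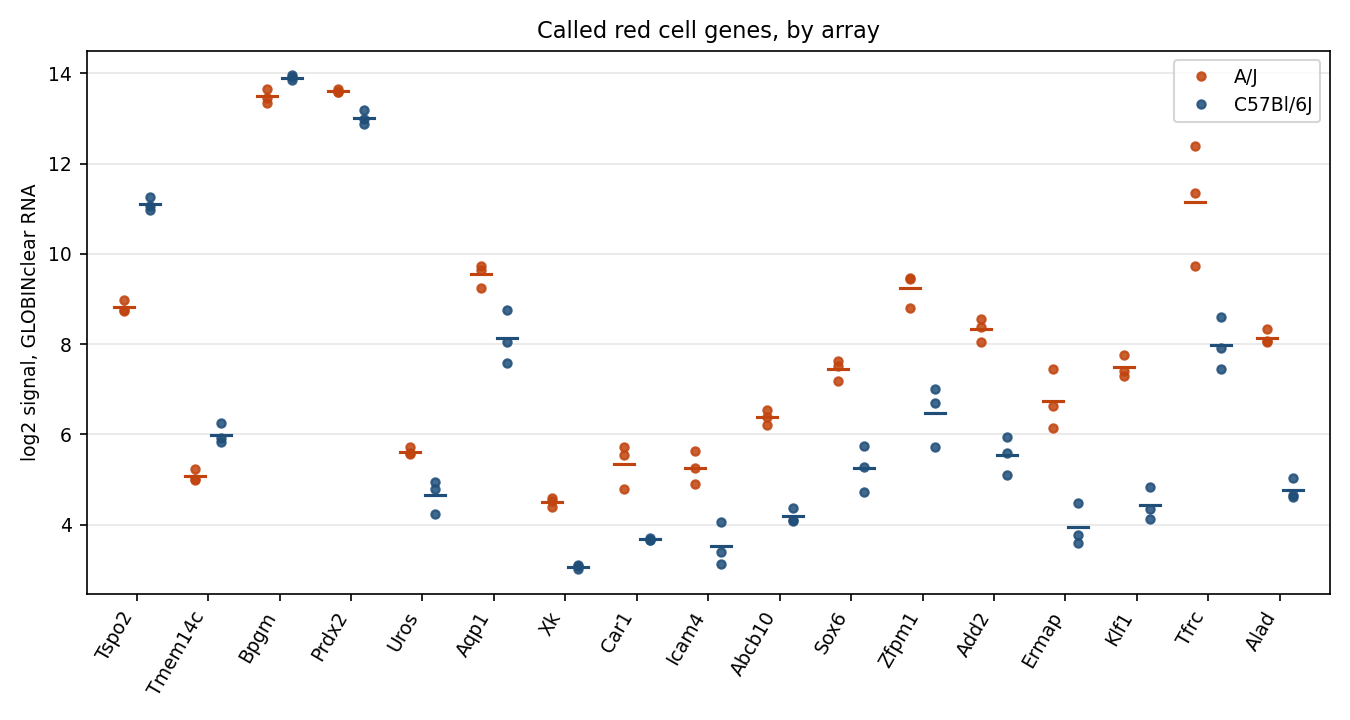
Log2 signal in GLOBINclear RNA (vertical axis) of the 17 called genes of the red cell lists, ordered from the most negative to the most positive difference, with A/J mice left and C57Bl/6J mice right for each gene, points for single mice and bars for means of 3. Tspo2, Tmem14c and Bpgm were lower in A/J and the other 14 higher.

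Of the transcription factors, Klf1, which activates globin and membrane genes, had 7.40, 7.29 and 7.76 in A/J mice, against 4.13, 4.34 and 4.84 in C57Bl/6J mice. The difference was 3.05 (SE 0.53, adjusted p = 0.00285), and the other 4 strains, at 6.56 to 8.01, were on the A/J side. Zfpm1, the GATA1 cofactor FOG1, had 9.47, 8.79 and 9.44 in A/J mice, against 5.72, 6.70 and 7.0 in C57Bl/6J mice (log2 2.76, SE 0.56, adjusted p = 0.00793). Sox6, a late erythroid factor, had 7.53, 7.63 and 7.19 in A/J mice, against 4.72, 5.29 and 5.75 in C57Bl/6J mice (log2 2.20, SE 0.29, adjusted p = 0.000334). No A/J mouse overlapped a C57Bl/6J mouse for any of them. The factors Nfe2 and Tal1 were not called, with differences of -0.67 and -0.45 (adjusted p = 0.166 and 0.517).

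Tfrc, the transferrin receptor, had 9.73, 12.38 and 11.35 in A/J mice, against 7.45, 7.92 and 8.60 in C57Bl/6J mice (log2 3.17, SE 0.59, adjusted p = 0.00462). The A/J mice varied more than for any other gene named so far but stayed above all C57Bl/6J mice. Alad, the second enzyme of heme synthesis, had 8.04, 8.07 and 8.33 in A/J mice, against 4.62, 4.67 and 5.04 in C57Bl/6J mice (log2 3.37, SE 0.36, adjusted p = 5.16e-05). Abcb10, a mitochondrial transporter of erythroid cells, had 6.20, 6.40 and 6.55 in A/J mice, against 4.09, 4.11 and 4.36 in C57Bl/6J mice (log2 2.19, SE 0.32, adjusted p = 0.000625). In the heme list of 16 genes, 3 were called higher and 1 lower, the third being Uros at 0.96 (adjusted p = 0.0154) and the lower one Tmem14c at -0.91 (adjusted p = 0.0424). The rate-limiting Alas2 and the last enzyme, Fech, were not called, at -0.12 and -0.06.

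At the membrane, Add2, beta adducin of the spectrin and actin junctions, had 8.57, 8.05 and 8.37 in A/J mice, against 5.11, 5.6 and 5.94 in C57Bl/6J mice (log2 2.78, SE 0.39, adjusted p = 0.000485). Ermap, the carrier of the Scianna blood group in humans, had 6.14, 7.45 and 6.63 in A/J mice, against 3.59, 3.77 and 4.47 in C57Bl/6J mice (log2 2.80, SE 0.44, adjusted p = 0.00139). Both genes were separated in every mouse. The water channel Aqp1, the adhesion protein Icam4 and Xk differed by 1.41, 1.73 and 1.43 (adjusted p = 0.0174, 0.0225 and 0.0425). Tspo2, an erythroid sterol-binding protein, went the other way, with 8.73, 8.75 and 8.97 in A/J mice, against 11.07, 10.96 and 11.25 in C57Bl/6J mice (log2 -2.28, SE 0.46, adjusted p = 0.00805). The other 4 strains had Tspo2 means of 6.98 to 8.63. Slc4a1, the band 3 anion exchanger and the brightest gene of this list, was not called, at 0.08 (adjusted p = 0.92).

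Car1, a red cell carbonic anhydrase, differed by 1.67 and Prdx2, the abundant red cell peroxiredoxin, by 0.59 (adjusted p = 0.0161 and 0.00615). Bpgm, which makes 2,3-bisphosphoglycerate, differed by -0.42 (adjusted p = 0.0395). The Prdx2 value depended on the probe set, since a fainter set gave -2.29. Of the 21 membrane genes 5 were called higher, and of the 28 other erythroid genes 6, each list with 1 lower. Without C57Bl/6J mouse 1, 2 membrane genes and 6 other erythroid genes were called higher. Aqp1, Icam4 and Xk lost their call without A/J mouse 3, C57Bl/6J mouse 1 or C57Bl/6J mouse 2 (adjusted p 0.0685 to 0.129). Aqp1 and Xk also lost it without A/J mouse 2 (0.0696 and 0.13), Icam4 and Xk without A/J mouse 1 (0.0628 and 0.0872) and Xk without C57Bl/6J mouse 3 (0.0603). The membrane count was 2 without A/J mouse 3 or C57Bl/6J mouse 2 and 3 without A/J mouse 1 or A/J mouse 2. Uros, Tmem14c, Bpgm and Car1 lost their call without A/J mouse 3 (adjusted p 0.053 to 0.149) or C57Bl/6J mouse 2 (0.0581 to 0.0863). Uros, Tmem14c and Bpgm also lost it without A/J mouse 2 (0.0639 to 0.172), Tmem14c and Car1 without A/J mouse 1 (0.122 and 0.0613), and Tmem14c and Bpgm without C57Bl/6J mouse 1 (0.131 and 0.103) or C57Bl/6J mouse 3 (0.0532 and 0.0744).

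The promoters of 2 red cell genes that were higher in A/J and of 2 platelet genes that were lower are printed because they hold short motifs of the kind read by GATA1. This factor is shared by these sister lineages. The examples were picked for that match, and most genes of both sets held none. The sequences are from RefSeq on GRCm38.p6, 5′ to 3′ on the gene's strand, from 250 bases before the annotated start to 50 after it. Capitals mark AGATAA or TGATAA, forms of the GATA motif, and AGGAAG, a form of the ETS motif, on either strand.
Klf1, chr8:84901732-84902031, plus strand: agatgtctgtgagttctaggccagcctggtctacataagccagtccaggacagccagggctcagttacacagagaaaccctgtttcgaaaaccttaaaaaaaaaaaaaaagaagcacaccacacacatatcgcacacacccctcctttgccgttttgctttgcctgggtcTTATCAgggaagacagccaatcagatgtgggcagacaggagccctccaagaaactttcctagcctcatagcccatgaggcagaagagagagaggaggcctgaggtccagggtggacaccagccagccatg
Ermap, chr4:119189946-119190245, minus strand: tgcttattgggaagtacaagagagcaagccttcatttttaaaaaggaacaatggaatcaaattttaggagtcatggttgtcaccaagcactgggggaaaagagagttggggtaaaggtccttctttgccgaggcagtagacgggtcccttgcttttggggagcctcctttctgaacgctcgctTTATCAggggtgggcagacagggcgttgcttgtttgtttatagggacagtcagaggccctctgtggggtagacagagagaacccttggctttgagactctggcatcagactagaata
Gp5, chr16:30310732-30311031, minus strand: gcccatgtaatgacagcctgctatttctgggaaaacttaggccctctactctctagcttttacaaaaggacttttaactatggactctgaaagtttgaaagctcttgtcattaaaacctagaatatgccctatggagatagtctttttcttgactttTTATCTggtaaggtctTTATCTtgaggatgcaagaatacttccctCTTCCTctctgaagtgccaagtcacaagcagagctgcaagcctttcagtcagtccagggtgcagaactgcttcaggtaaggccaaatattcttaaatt
F2rl2, chr13:95696670-95696969, plus strand: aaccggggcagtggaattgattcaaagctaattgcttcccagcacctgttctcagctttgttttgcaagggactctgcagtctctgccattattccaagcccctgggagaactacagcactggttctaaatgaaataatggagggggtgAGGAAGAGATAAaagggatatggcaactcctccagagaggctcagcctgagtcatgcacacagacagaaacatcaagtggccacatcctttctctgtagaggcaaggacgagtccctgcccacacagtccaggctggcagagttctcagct
The Klf1 and Ermap windows each held TGATAA on the opposite strand, while Gp5 held AGATAA 2 times and F2rl2 held AGATAA directly after AGGAAG. Among the 14 red cell genes called higher, 13 had a promoter in the table, and 5 of these held AGATAA or TGATAA, 5 held AGGAAG and 1 held CCACACCC, a form of the KLF1 motif. Among the 11 called platelet genes, 8 had one, and 2 held AGATAA or TGATAA, 6 held AGGAAG and none CCACACCC. Counting any promoter of a gene, 21% of all genes held a GATA form, 38.4% held AGGAAG and 4.09% held CCACACCC. A match is a run of letters and not a measured binding site, and no strain sequence of A/J was read.

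Adult globin genes were compared as a separate family. The probe sets shared by the alpha genes or by the beta genes were near the top of the scale and differed by -0.08 to -0.23 in GLOBINclear RNA without a call. In whole RNA the beta set and 1 of the 3 alpha sets were called lower in A/J, at -0.17 and -0.18. One set for Hbb-b2, a beta gene of the diffuse haplotype, had 7.26, 7.84 and 7.92 in A/J mice, against 4.75, 6.17 and 6.05 in C57Bl/6J mice (log2 2.02, SE 0.38, adjusted p = 0.00428). In whole RNA the same set had 11.57, 11.24 and 11.55 in A/J mice, against 8.78, 8.89 and 9.31 in C57Bl/6J mice (log2 2.46, adjusted p = 5.24e-05). The strains did not overlap in either preparation. The other 4 strains had GLOBINclear means of 7.83 to 8.17, on the A/J side. A second Hbb-b2 set, near the floor, gave 0.15 in GLOBINclear RNA and -0.02 in whole RNA, without a call in either. A set for Hba-a2 gave 0.61 in GLOBINclear RNA without a call (adjusted p = 0.446). The array cannot separate near-identical globin genes. The 3 embryonic globin genes tested, Hbb-y, Hbb-bh1 and Hba-x, were not called, at -0.57, 0.30 and 0.04.

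Class I molecules of the major histocompatibility complex present peptides on all nucleated cells, and class II molecules on B cells and other antigen-presenting cells. Of 17 class I and peptide loading genes, 3 were called lower in A/J and none higher, with a median of -0.57, and 1 of the 3 is H2-D1, whose probe sets conflict. The share called was 17.6%, against 6.17% of all genes. Genes at a signal of 5 to 7 had a share of 14.6% and a median of -0.39. The class I median was -0.16 without C57Bl/6J mouse 1 and -0.98 without A/J mouse 1, and the count was 1 without A/J mouse 3 and 6 without C57Bl/6J mouse 3. Of 10 class II genes, 1 was called lower and none higher, a share of 10%, with a median of -1.29. The class II median was -0.70 with none called without C57Bl/6J mouse 1. It was -0.81 with none called without A/J mouse 3, -1.95 with 3 called without C57Bl/6J mouse 3, and none was called without C57Bl/6J mouse 2. Tapbp, the chaperone tapasin, had 7.69, 7.26 and 6.83 in A/J mice, against 9.08, 8.31 and 8.17 in C57Bl/6J mice (log2 -1.26, SE 0.27, adjusted p = 0.0123). B2m, the light chain of class I, was not called at -0.95 (adjusted p = 0.0742) in GLOBINclear RNA.

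Among the class I heavy chain genes, H2-D1 gave contradictory readings by probe set. It had 10.34, 9.31 and 8.93 in A/J mice, against 11.31, 11.14 and 11.14 in C57Bl/6J mice on its brightest set (log2 -1.67, SE 0.32, adjusted p = 0.00541). A further 3 fainter sets of the same gene were far higher in A/J, by 6.98, 6.66 and 5.92. H2-K1 had 10.21, 9.30 and 8.96 in A/J mice, against 11.21, 11.20 and 11.05 in C57Bl/6J mice on its brightest set (log2 -1.66, SE 0.35, adjusted p = 0.00991). Its other sets gave -4.47, -0.73 and -0.14, the first of them called, so all 4 were negative although their sizes differed widely. Averaging the tested sets of H2-D1 gave 1.75, and no direction for H2-D1 can be read from the arrays. The part of sequence differences under the probes was not tested for either gene. H2-Ab1, a class II beta chain, had 4.86, 4.90 and 4.07 in A/J mice, against 8.33, 7.57 and 5.91 in C57Bl/6J mice (log2 -2.66, SE 0.59, adjusted p = 0.0143). The strains did not overlap, but C57Bl/6J spread over more than 2 log2 units. H2-Ea, which the H2b haplotype does not express because of a promoter deletion, had 3.51, 4.08 and 3.69 in A/J mice, against 3.30, 3.38 and 3.12 in C57Bl/6J mice, and was not called on its brightest set (log2 0.49, adjusted p = 0.368). A second H2-Ea set was called higher in A/J, with 3.98, 4.41 and 3.23 in A/J mice, against 2.66, 2.73 and 2.86 in C57Bl/6J mice (log2 1.12, adjusted p = 0.0153), and a further set gave 0.03 without a call. Without A/J mouse 3, the calls of H2-K1, Tapbp and H2-Ab1 were lost (adjusted p = 0.0641, 0.0798 and 0.0796), and that of H2-Ab1 also without C57Bl/6J mouse 1 or C57Bl/6J mouse 2 (0.0653 and 0.0655).

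**Figure D4:**
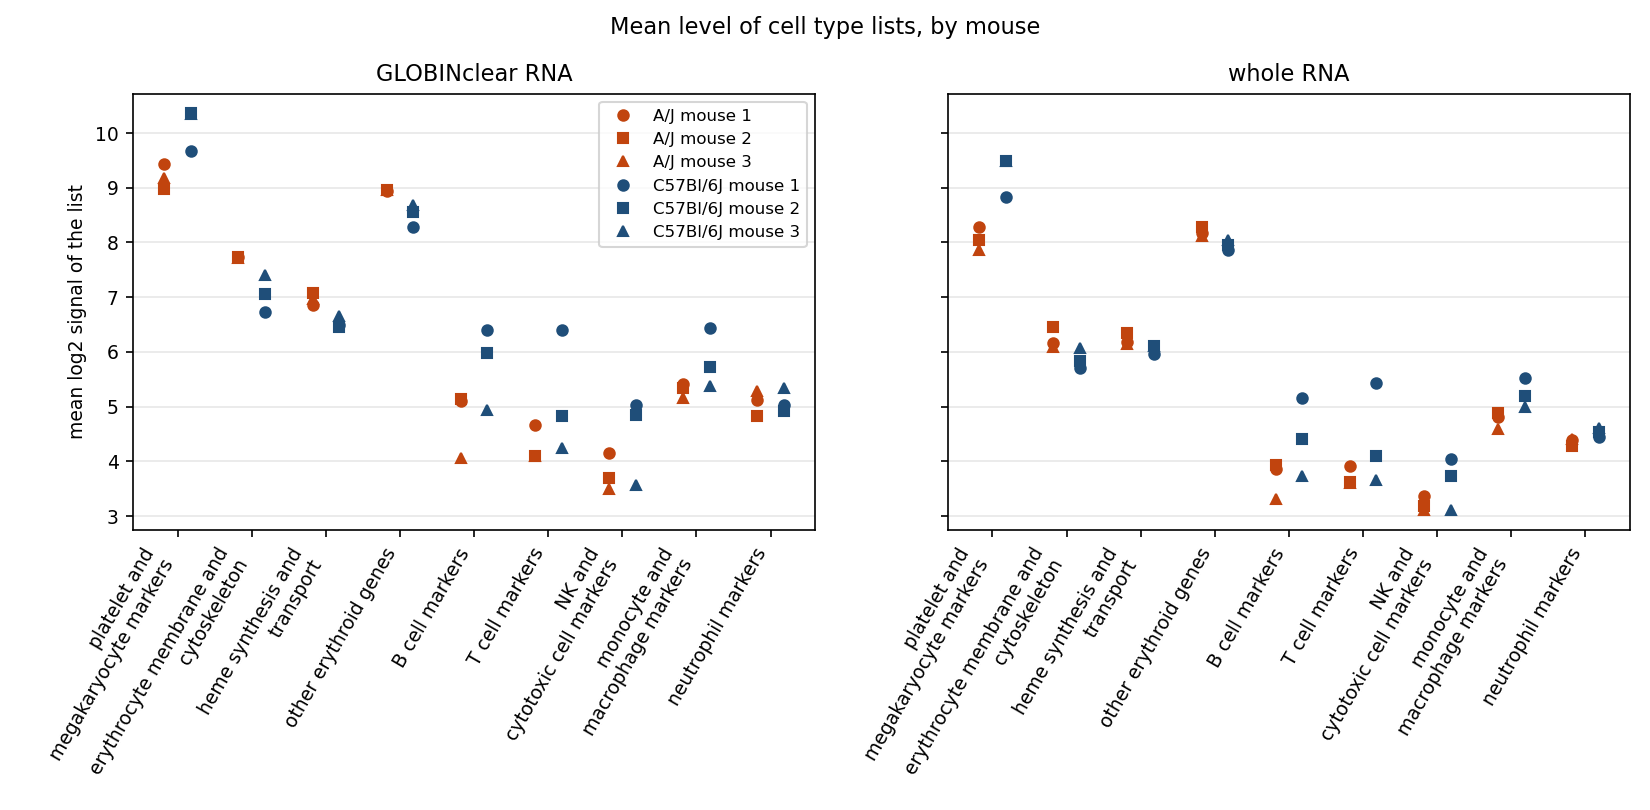
Mean log2 signal (vertical axis) of 9 gene lists in each mouse, in GLOBINclear RNA (left panel) and whole RNA (right panel), with A/J mice left and C57Bl/6J mice right for each list and symbols for mouse 1 (circle), 2 (square) and 3 (triangle). In both preparations platelet levels were lower and the levels of the red cell lists higher in all A/J mice. In whole RNA the erythrocyte membrane levels came as close as 6.09 in A/J and 6.07 in C57Bl/6J. The B cell, T cell and NK levels of C57Bl/6J mouse 1 were the highest of the 6.

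Most white cell lists had a negative median in A/J. Their shares of called genes, 0% to 5.88%, lay near or below the 6.17% of all genes. The median of all genes was -0.18 at a signal of 3.5 to 5 and -0.39 at 5 to 7. Of 17 B cell markers 1 was called lower and the median was -1.18, and of 19 T cell markers 1 was called lower with a median of -0.74. None of 12 NK and cytotoxic markers was called, with a median of -0.70. Of 18 monocyte and macrophage markers 1 was lower and the median was -0.52. The 17 neutrophil markers gave no call and a median of 0.01, and the 8 eosinophil, basophil and mast cell markers no call and a median of 0.04.

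The lymphocyte levels moved with the mouse as well as with the strain. The B cell level was 4.05 to 5.14 in A/J mice and 4.93 to 6.40 in C57Bl/6J mice, and the T cell level 4.09 to 4.67 in A/J mice and 4.24 to 6.40 in C57Bl/6J mice. Both overlapped, and C57Bl/6J mouse 1 was the highest. Without that mouse the T cell median was -0.13, the B cell median -0.65 and the monocyte median -0.07.

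Ms4a1, the B cell surface protein CD20, had 4.49, 5.56 and 3.25 in A/J mice, against 8.43, 7.66 and 6.47 in C57Bl/6J mice (log2 -3.09, SE 0.65, adjusted p = 0.00946). Its mice did not overlap, A/J mouse 3 was the lowest, and without that mouse the call was lost (adjusted p = 0.0604). The B cell receptor chains Cd79a and Cd79b were not called, at -0.85 and -1.19. Lat, an adaptor of the T cell receptor that platelets also use, had 7.02, 6.44 and 6.61 in A/J mice, against 8.58, 7.74 and 7.61 in C57Bl/6J mice (log2 -1.29, SE 0.31, adjusted p = 0.0247). F13a1, coagulation factor XIII A of monocytes and platelets, had 9.26, 8.93 and 9.18 in A/J mice, against 9.83, 10.19 and 10.26 in C57Bl/6J mice (log2 -0.97, SE 0.22, adjusted p = 0.0168). Lat lost its call without C57Bl/6J mouse 1 (adjusted p = 0.0951), and both Lat and F13a1 lost it without A/J mouse 2 or A/J mouse 3 (0.0558 to 0.108), F13a1 also without C57Bl/6J mouse 2 (0.0713).

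Fcer1g, the signalling chain shared by Fc receptors and platelet glycoprotein VI, was among the firmest of the lower genes. It had 8.57, 8.38 and 8.64 in A/J mice, against 10.27, 10.52 and 10.79 in C57Bl/6J mice (log2 -2.0, SE 0.19, adjusted p = 1.47e-05). The other 4 strains had 8.87 to 9.26, leaving C57Bl/6J as the highest strain. It was the only call among 13 genes of the SLAM and Fc receptor region, a share of 7.69% against 6.17% of all genes. The median of that list was -0.43, and -0.07 without C57Bl/6J mouse 1. None of 12 genes of the NK cell receptor complex was called, with a median of 0.05.

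Of 31 interferon-stimulated genes, 3 were called lower in A/J and none higher, with a median of -0.14. The share called was 9.68%, against 3.92% of all genes called lower, and the median was -0.09 without C57Bl/6J mouse 1. Oasl2, a 2′-5′ oligoadenylate synthetase-like protein, had 3.91, 3.07 and 3.10 in A/J mice, against 7.13, 5.6 and 6.55 in C57Bl/6J mice (log2 -3.07, SE 0.32, adjusted p = 3.49e-05). Irf7, the factor that amplifies interferon production, had 7.67, 7.35 and 6.87 in A/J mice, against 9.70, 8.79 and 9.08 in C57Bl/6J mice (log2 -1.89, SE 0.44, adjusted p = 0.0185), and it lost its call without C57Bl/6J mouse 1, A/J mouse 2 or A/J mouse 3 (adjusted p = 0.0753, 0.0578 and 0.0997). The strains were apart for both, and Ly6e was the third. In the Ifi200 family of DNA sensors, Mndal was called lower and the other 6 tested genes were not, a share of 14.3% against 6.17% of all genes. The family median was -0.001. Mndal had 3.13, 3.19 and 3.16 in A/J mice, against 8.45, 7.67 and 5.78 in C57Bl/6J mice (log2 -4.14, SE 0.46, adjusted p = 7.32e-05), so that it was near the floor in A/J and varied between C57Bl/6J mice.

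Of 10 interferon-inducible GTPases, Ifi47 alone was called, a share of 10%, against 6.17% of all genes. Ifi47 differed by -1.43 (SE 0.31, adjusted p = 0.0125), and it lost the call without A/J mouse 3 or C57Bl/6J mouse 2 (adjusted p = 0.0773 and 0.0549). In the cluster of Trim restriction factors, which block retroviral capsids, 3 of 7 genes were called lower, against 3.92% of all genes. Trim12a had 3.08, 3.12 and 3.15 in A/J mice, against 4.41, 4.48 and 3.38 in C57Bl/6J mice (log2 -0.97, SE 0.20, adjusted p = 0.00742). Trim30d and Trim5 differed by -0.69 and -0.35 (adjusted p = 0.000485 and 0.00733), all at faint signals. None of the 7 was called in whole RNA, where their median was -0.11. The Trim12a, Trim30d and Trim5 calls were lost with the 6 arrays of these strains alone, with spike-in centring and with the replicate number as a block. Apobec3, a cytidine deaminase that restricts retroviruses, had 2.77, 2.81 and 2.85 in A/J mice, against 4.87, 4.57 and 3.77 in C57Bl/6J mice (log2 -1.59, SE 0.18, adjusted p = 0.000104). A/J mice lay at the floor for all 4 of these genes.

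None of 15 inflammasome and pattern receptor genes was called, with a median of -0.08. Of 28 chemokine and cytokine receptor genes, 1 was called, a share of 3.57% against 6.17% of all genes. It was Ifnar2, a chain of the type I interferon receptor, higher at 0.94 (adjusted p = 0.0368). C57Bl/6J mouse 3 was the only mouse without which the call was kept (adjusted p 0.0554 to 0.137 without any other). Of 13 complement genes, 2 were called higher, against 2.25% of all genes. Cd59a, which blocks the membrane attack complex on blood cells, had 9.86, 9.97 and 9.90 in A/J mice, against 7.02, 8.18 and 8.48 in C57Bl/6J mice (log2 2.02, SE 0.38, adjusted p = 0.00518). C2, a complement protease, had 3.71, 4.50 and 3.84 in A/J mice, against 3.40, 3.42 and 3.43 in C57Bl/6J mice (log2 0.60, SE 0.15, adjusted p = 0.0275), and without A/J mouse 2, which was the highest, it was not called (log2 0.36, adjusted p = 0.0544), nor without C57Bl/6J mouse 1 or C57Bl/6J mouse 2 (0.0601 and 0.0817).

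Of 22 glutathione and aldehyde genes, 1 was called higher and 2 lower, a share of 13.6% against 6.17% of all genes. Gstm5, a mu class transferase, had 10.51, 10.76 and 11.01 in A/J mice, against 9.77, 9.59 and 10.05 in C57Bl/6J mice (log2 0.95, SE 0.15, adjusted p = 0.00114). Gsto1, an omega class transferase, had 5.03, 4.59 and 4.71 in A/J mice, against 6.12, 6.28 and 7.15 in C57Bl/6J mice (log2 -1.74, SE 0.36, adjusted p = 0.00893). Both were separated by strain. Aldh2, the mitochondrial aldehyde dehydrogenase, differed by -0.96 (adjusted p = 0.012) and was not called without A/J mouse 2, A/J mouse 3 or C57Bl/6J mouse 2 (adjusted p 0.0572 to 0.0624). It also depended on the probe set, since 3 of its other 4 sets gave 0.12, 0.54 and 0.52 without a call, and the mean of all sets gave -0.23 (adjusted p = 0.765). Gsta2 was outside this list.

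Among housekeeping lists, the ribosomal one leaned to A/J. Of 38 cytosolic ribosomal protein genes, 33 had positive differences and the median was 0.22, but 2 were called higher, Rpl37 at 1.69 and Rpl41 at 0.58, and 1 lower, Rps14 at -0.29 (adjusted p = 0.000916, 0.00733 and 0.0108). The share called was 7.89%, against 6.17% of all genes and 20.7% of genes with a mean signal above 9, the level of this list. Leaving out C57Bl/6J mouse 1 gave 9 called higher and a median of 0.46, and without A/J mouse 2 the Rps14 call was lost (adjusted p = 0.0525). Of 69 oxidative phosphorylation genes, 2 were called higher, Uqcr10 at 0.88 and Uqcr11 at 1.18, and 3 lower, Ndufs8, Atp5g2 and Atp5g3, at -1.23, -1.61 and -1.35, a share of 7.25%, with a median of 0.01. Of all genes at a signal of 7 to 9, the level of this list, 21.4% were called. Uqcr10 depended on the probe set, since another set was called at -1.39. Without C57Bl/6J mouse 1, none of the 3 lower calls held and 1 of the higher 2, Uqcr10, did (adjusted p 0.0684 to 0.196 for the 4 lost). Without C57Bl/6J mouse 3, 7 were called lower, without A/J mouse 2 it was 1, and without A/J mouse 1, A/J mouse 3 or C57Bl/6J mouse 2 none. Uqcr11 was not called when any mouse other than C57Bl/6J mouse 3 was left out (adjusted p 0.0637 to 0.145). The immediate early and stress list, which marks handling of blood, had 1 call among 33 genes, a share of 3.03%, and a median of -0.17. The call was Gadd45a at -1.03 (adjusted p = 0.0247). Gadd45a was not called without A/J mouse 2, A/J mouse 3, C57Bl/6J mouse 2 or C57Bl/6J mouse 3 (adjusted p = 0.0598, 0.139, 0.0811 and 0.0633).

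Of 20 tested genes with known A/J or C57Bl/6J alleles, 3 were called higher (Emb, Alad and Hbb-b2) and 3 lower (Ift140, Apobec3 and Trim12a). The share was 30%, against 6.17% of all genes. This list was written with earlier results of these data known, so its share does not measure how often known alleles differ. Hc, complement C5, which A/J lacks as a protein, was at the floor with 2.84, 2.92 and 2.90 in A/J mice, against 2.86, 2.93 and 2.98 in C57Bl/6J mice. Nnt, of which C57Bl/6J carries a deletion, had 3.98, 4.15 and 3.83 in A/J mice, against 3.78, 3.82 and 3.79 in C57Bl/6J mice (log2 0.19, adjusted p = 0.828). Neither gene was bright enough in blood for the alleles to be read. Glo1, glyoxalase 1, differed by -0.50 without a call on its brightest set (adjusted p = 0.628), while a fainter set gave 2.13 (adjusted p = 0.0245), so its direction depends on the probe set. Slc11a1, P2rx7, Ly9 and Klra8 were not called, with differences of -0.68, -0.36, -0.78 and -0.17. Wdfy1, Ifi202b, Gdpd3, Cd244a, Mx1 and Ide lay between -0.03 and 0.52 on their brightest sets, also without a call, although a second Wdfy1 set was called at 0.80 (adjusted p = 0.0369).

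Set against the other strains, A/J stood alone less often than C57Bl/6J among the 700 called genes, as a description with no test. For 69 genes none of the other 4 strains lay on the A/J side of the midpoint between the parents, and for 148 all 4 did. Between these, 1 strain was on the A/J side for 145 genes, 2 for 165 and 3 for 173. Among 15 pairs of strains, A/J against C57Bl/6J had the third largest number of called probe sets, after 1434 for 129S1/ImJ against FVB/NJ and 1361 for A/J against 129S1/ImJ, while A/J against C3H/HeJ had 259. Called genes lay on all 19 autosomes and X. The share called was 3.64% on chromosome 18 at the low end and 8.97% on chromosome 11 at the high end, and 5.79% on chromosome 17, which carries H2.

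**Figure D5:**
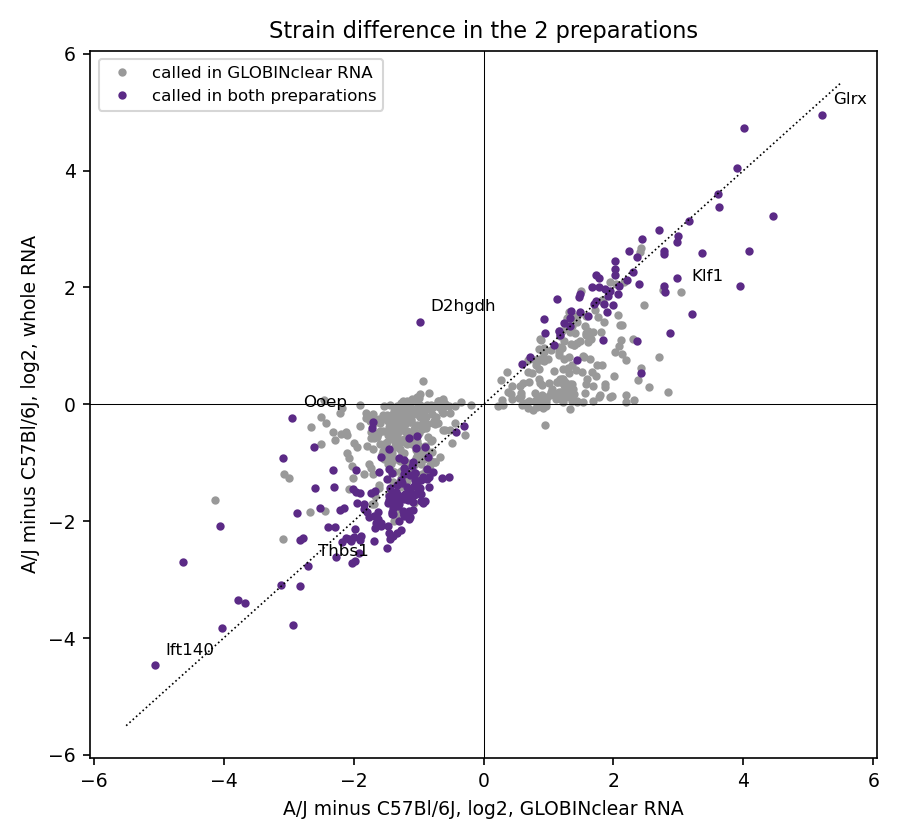
A/J minus C57Bl/6J log2 difference in GLOBINclear RNA (horizontal axis) and whole RNA (vertical axis) for the 700 genes called in GLOBINclear RNA, with purple points for genes called in both and a dotted line where both are equal. Most genes lie in the quadrants of equal sign, many closer to 0 in whole RNA, and D2hgdh is the called gene in the opposite quadrant.

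The strain difference itself depended on preparation for 88 genes, or 0.775%, and 176 probe sets, or 0.782%, in a paired fit of GLOBINclear minus whole values. Ooep, a maternal-effect gene of the oocyte, had 2.62, 2.64 and 2.65 in A/J mice, against 4.66, 5.91 and 6.16 in C57Bl/6J mice in GLOBINclear RNA (log2 -2.94, SE 0.25, adjusted p = 3.81e-06). In whole RNA it was called at a smaller difference of -0.23 (adjusted p = 0.0149), with all 6 mice close to the floor. Natd1 and Cuedc1 gave 2.83 and 2.55 in GLOBINclear RNA, and 0.22 and 0.30 in whole RNA, without a call there. D2hgdh, which oxidises D-2-hydroxyglutarate, had 5.0, 4.65 and 4.86 in A/J mice, against 6.00, 5.65 and 5.78 in C57Bl/6J mice in GLOBINclear RNA (log2 -0.97, adjusted p = 0.0135). In whole RNA it had 7.15, 5.69 and 6.57 in A/J mice, against 5.19, 5.05 and 4.94 in C57Bl/6J mice (log2 1.41, adjusted p = 0.0199). The strains were apart in both preparations but in opposite order, and the GLOBINclear call was lost without A/J mouse 2 or A/J mouse 3 (adjusted p = 0.0722 and 0.0527).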

How the data were processed

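The deposited values are log2 signals per probe set of an Affymetrix mouse array. Per the submitters' processing notes, the authors used GCRMA, MAS5 and affy, with no version, role or order, so the method behind the deposited log2 values is not known from them. Per the labels, 3 mice per strain gave 1 whole and 1 GLOBINclear array each.

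Control probe sets and those with a mean over all 36 arrays at or below the median, 2.89, were left out. Of 45101 probe sets, 34945 had 1 gene symbol, 932 several and 9160 none, and a gene was read on its brightest tested set. The 18 GLOBINclear arrays of all 6 strains were fitted with limma 3.58.1 in R 4.3.3 (group means, intensity trend, 12 residual degrees of freedom) and the A/J minus C57Bl/6J contrast was adjusted by Benjamini-Hochberg over 22518 probe sets at 0.05. Whole arrays were fitted likewise. Dependence on preparation was tested on GLOBINclear minus whole values, paired by mouse, since each GLOBINclear array's deviations from its group mean correlated best with those of the same mouse's whole array (0.267 to 0.664). On simulated data for the GLOBINclear contrast over 22518 probe sets, 65 of 100 changes of log2 1 and 92 of 100 of log2 2 were recovered, with 6 false calls. The simulated noise was independent between probe sets and equally wide in every strain. It lacked the wider, shared variation of the C57Bl/6J arrays, so these numbers do not give the error rates of the real contrast.

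The named genes were the 12 with the largest called, non-overlapping difference of the same sign in whole RNA in each direction, up to 4 called genes per list by size of statistic, the genes with known alleles and the 6 with the smallest p for preparation. The comparison and the 28 gene lists were chosen with earlier results of these data known. Array technique limits precision to 3 mice per strain, and no batch or scan date was used. Figures were drawn with matplotlib 3.10.9.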

Additional observations from a re-analysis of the deposited data

Results flagged for a closer look

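In 15 of 96 tested named genes, the strain difference in GLOBINclear RNA differed from that in whole RNA of the same mice (limma on GLOBINclear minus whole values, paired by mouse, adjusted over all probe sets). Over all tested genes it was 88 of 11353, or 0.775%. The named genes were chosen largely by their GLOBINclear differences, which are part of the tested quantity. Their count is therefore not comparable with that share. Each value below is the GLOBINclear strain difference minus the whole strain difference on the log2 scale. Ooep, Gsta2, Natd1, Cuedc1, D2hgdh and Apobec3 were named partly or wholly because this value had a small p.

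Among genes higher in A/J in GLOBINclear RNA, the value was 2.62 for Natd1 (adjusted p = 0.000403), 2.26 for Cuedc1 (0.000677), 2.03 for Abcb10 (0.00128), 1.92 for H2bc18 (0.0031), 1.66 for Fnip2 (0.0223) and 1.38 for Rpl37 (0.0379). Abcb10 had a whole RNA difference of 0.16, so its higher level in A/J was seen after globin removal.

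Among genes lower in A/J, the value was -2.71 for Ooep (1.6e-05), -2.50 for Mndal (0.0184), -2.16 for Mprip (0.00354), -1.98 for Dut (0.0039), -1.93 for Gsta2 (1.9e-05), -1.88 for Oasl2 (0.000724), -1.73 for Ly6d (0.0206) and -1.14 for Apobec3 (0.0004). In these the whole RNA difference had the same sign and was smaller. D2hgdh had -2.38 (0.000677), with opposite signs in the preparations. The cause was not tested for any of them.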

How the results depend on the processing

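The GLOBINclear comparison called 1236 probe sets. The count was 617 with the 6 arrays of these strains alone, 723 with hybridization spike-in centring, 1978 with array weights (whose estimation did not converge) and 658 to 1770 with 1 mouse left out. It lay between 931 and 1344 without a filter, with a mean above log2 4, with quantile or median scaling, without an intensity trend and with the mean of both preparations. The share called higher was 39.6% and became 57.2% under quantile normalization, 50.1% with 6 arrays and 29.3% without C57Bl/6J mouse 3. In whole RNA, 514 became 309 with 6 arrays, 776 above log2 4, 11108 with spike-in centring, 6666 with array weights and 256 to 539 with 1 mouse left out. Spike-in centring there moved the median of all probe sets to 0.33 and made 96.6% of calls higher, and quantile normalization moved that share to 52.9% from 33.7%. The 176 probe sets that depended on preparation became 1 with 6 mice alone and 84 to 193 with 1 mouse left out.

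The replicate numbers of the strains were not treated as pairs in the main fit. Same-number correlations between the strains were 0.237, -0.0867 and 0.55, and those of unlike numbers were -0.483 to 0.236. Whether mice of the same number shared a batch was not tested. With the replicate number as a block on 6 arrays, 196 probe sets were called in GLOBINclear RNA and 0 in whole RNA by limma, where 2333 had an unadjusted p under 0.05. Without the pairing of preparations, 162 probe sets depended on preparation.

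Spike-in centring reversed whole RNA values of Nnt (0.32), P2rx7 (0.27), Ly9 (0.35), Cd244a (0.34), Mx1 (0.33), Klra8 (0.31) and Ooep (0.12). The mean of both preparations reversed D2hgdh (0.22), and the mean of all probe sets reversed H2-D1 (1.75), Prdx2 (-0.85) and Uqcr10 (-0.17). Of 82 called named genes, 27 kept their call under all the alternatives that could be run on them (17, or 16 for H2bc18, Oasl2, Ooep and Natd1), 12 lost it under the replicate block alone and 43 under others. The cause was not tested.

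The 3 mice per strain limit precision, and an exact permutation test of 3 against 3 cannot give a p below 0.1. No array batch is given in the labels, so a batch shared by the mice of a strain cannot be told apart from strain.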
